A study of Mus musculus with 4 samples.

Results

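Secreted proteases of the disc matrix, the 4 aggrecanases Adamts1, Adamts4, Adamts5 and Adamts9 and the 3 serine proteases Htra1, Htra3 and Htra4, were followed in single cells of mouse tail intervertebral discs. They were chosen by name for their gene families and are 7 of the 32285 genes listed in the deposited matrices. All 4 libraries came from female wild-type C57BL/6 mice of 12 weeks. In the injured group, tail discs CC5/6 to CC9/10 were punctured from both sides with a 30G needle and taken 7 days later. The control discs were unpunctured discs of the more distal levels CC12/13 to CC16/17 of the same animals, so injury and tail level cannot be told apart. Discs were pooled (30 discs from 6 mice per group, with no statement whether per round), and each group was sequenced once in each of 2 rounds, giving 2 libraries a group.

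Aggrecan is the large chondroitin sulphate proteoglycan that holds water in the disc, and aggrecanases cut its core protein. Adamts5 and Adamts4 are regarded as the main aggrecanases of mouse cartilage, while Adamts1 and Adamts9 also cut versican, a related proteoglycan of soft connective tissue and vessel walls. Htra proteases carry a trypsin-like domain followed by a PDZ domain. Secreted Htra1 degrades fibronectin and several small proteoglycans, and it is studied in human disc degeneration and osteoarthritis. Less is known of Htra3 and Htra4, which share its domain layout.

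Of the listed barcodes, 3846 had at least 250 genes and were taken as cells. They numbered 378 in control round 1, 856 in control round 2, 778 in injured round 1 and 1834 in injured round 2, with a median of 1061.5, 836, 7033.5 and 4635 UMIs (unique molecules) per cell. Of the 444 barcodes listed for control round 1, 115 carried a similar number of UMIs in injured round 1 and 104 carried far more there, and 55 and 104 of the 378 cells lie among them, so results were also computed without them. Clustering without the 7 genes gave 17 clusters, each called here by its leading gene and named from marker lists. A cluster stayed unnamed where over 50% of its control round 1 cells had barcodes with a similar UMI number in injured round 1. This held for 100% of those cells in the clusters led by Ccl11, Krt18, Igkc and Try5. The Ccl11-led cluster met 3 markers of the outer annulus list. Inner annulus-like cells (4 clusters, 1590 cells) expressed cartilage genes, outer annulus-like cells (3 clusters, 490 cells) expressed fibroblast genes, and 102 nucleus pulposus-like, 64 endothelial-like, 39 mural-like (vessel wall) and 130 macrophage-like cells were also found. The 560 cells of a cluster led by Myoc stayed unnamed, since markers of more than 1 class were among its top genes.

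Htra1 was the most abundant of the 7, with 11870 UMIs in all cells, or 579 CPM (UMIs per 1e6 UMIs). Htra3 followed with 7200 UMIs (351 CPM) and Adamts1 with 2523 (123 CPM). Adamts5 had 1029 UMIs (50.2 CPM) and Htra4 had 640 (31.2 CPM), whereas Adamts4 had 167 (8.15 CPM) and Adamts9 had 112 (5.46 CPM). The 3' assay gives 1 UMI per captured transcript molecule whatever its length, so transcript length does not set these CPM levels. Whether the genes were captured equally well was not tested. In barcodes with under 100 UMIs, which hold mostly RNA free in the suspension, Htra1 stood at 104 to 133 CPM and Adamts4 at 10.4 to 36.4 CPM over the 3 libraries that list such barcodes. Htra1 was thus several times higher in cells than in the suspension, while Adamts4 averaged over all cells was not above it, and nor was Adamts9 (6.82 to 29.9 CPM in those barcodes). The other suspension levels were 30.4 to 54.7 CPM for Adamts1, 5.72 to 21.5 CPM for Adamts5, 39.8 to 74.8 CPM for Htra3 and 7.36 to 13.7 CPM for Htra4. Levels of a gene in a cell group at or below these ranges may be background, but the ranges set no firm limit. Endothelial-like cells held no Htra1 or Htra3 UMI in 253486 UMIs, below the suspension levels of both.

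Promoter sequence is shown for the 4 members with a usable entry, because Adamts1 and Adamts9 were highest in vessel wall cells and Htra1 and Htra3 were high in annulus cells and almost absent from endothelial-like cells. Each run ends at the annotated gene start or before it and reads 5' to 3' in the direction of transcription, from RefSeq on GRCm38.p6. Capitals mark a GC box (GGGCGG on either strand) or a TATA box (TATAAA on either strand).
Adamts1, chr16:85803114-85803363, minus strand: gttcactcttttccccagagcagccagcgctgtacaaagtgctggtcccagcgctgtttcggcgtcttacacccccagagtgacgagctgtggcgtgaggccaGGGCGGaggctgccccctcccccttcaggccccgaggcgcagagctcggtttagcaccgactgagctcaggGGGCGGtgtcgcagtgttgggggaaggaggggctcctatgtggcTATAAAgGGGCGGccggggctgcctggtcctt
Adamts9, chr6:92943535-92943784, minus strand: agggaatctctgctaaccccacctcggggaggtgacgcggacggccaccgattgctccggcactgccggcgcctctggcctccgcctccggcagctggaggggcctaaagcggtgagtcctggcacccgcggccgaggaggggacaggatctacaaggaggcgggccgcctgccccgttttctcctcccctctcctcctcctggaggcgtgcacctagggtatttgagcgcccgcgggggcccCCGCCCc
Htra1, chr7:130935953-130936110, plus strand: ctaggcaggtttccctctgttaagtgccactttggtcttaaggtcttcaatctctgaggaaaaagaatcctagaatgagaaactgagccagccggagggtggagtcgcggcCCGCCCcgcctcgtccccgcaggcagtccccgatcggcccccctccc
Htra3, chr5:35679783-35680030, minus strand: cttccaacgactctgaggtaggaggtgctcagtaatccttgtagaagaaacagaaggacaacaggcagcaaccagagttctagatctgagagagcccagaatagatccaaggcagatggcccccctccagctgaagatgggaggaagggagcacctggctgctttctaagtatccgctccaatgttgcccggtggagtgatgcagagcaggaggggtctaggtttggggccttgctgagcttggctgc
Adamts1 held 3 GC boxes, the last of them 1 base after a TATA box, with no overlap between motifs. Adamts9 held 1 GC box and Htra1 held 1, both on the other strand, and Htra3 held neither motif. Over all 32851 mouse promoter windows of 250 bases, 32.7% held a GC box and 12.4% a TATA box. For the 158 bases of Htra1, the first 158 bases of every window were searched, the part farthest upstream, and gave 17.8% and 7.57%. AP-1 (TGANTCA), CRE (TGACGTCA) and ETS (CCGGAAGT) letters were searched on both strands too and had no match in these 4 windows, against 6.75%, 1.55% and 2.88% of all windows. These letters describe the sequence and show no binding. The GC content was 65.6% for Adamts1, 71.2% for Adamts9, 60.1% for Htra1 and 54.8% for Htra3, beside a median of 52.4% over all windows.

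In the mm10 annotation, Adamts1 (chromosome 16, 85793827 to 85803113) and Adamts5 (chromosome 16, 85856173 to 85901828) lie side by side on the minus strand, 53059 bases apart with no coding gene between them. The other members lie apart, with Adamts4 on chromosome 1 (171250421 to 171260637), Adamts9 on chromosome 6 (92772699 to 92943492), Htra1 on chromosome 7 (130936111 to 130985660), Htra3 on chromosome 5 (35652023 to 35679782) and Htra4 on chromosome 8 (25024929 to 25038962).

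Adamts5 was measured in 28.4% of outer annulus-like cells at 83.9 CPM and in 16.6% of inner annulus-like cells at 44.6 CPM. Its highest level was 412 CPM (57 UMIs, 14.8% of cells) in the unnamed Ccl11-led cluster of 318 cells, which had a median of 385 UMIs per cell and came mostly from control round 2. Among annulus clusters Adamts5 stood at 98.5 CPM in the Aspn-led outer cells, 76.6 CPM in the Mmp12-led inner cells and 32.2 to 35.6 CPM in the other 3 inner clusters. Endothelial-like and mural-like cells held 3 and 2 Adamts5 UMIs (11.8 and 11.7 CPM), and macrophage-like cells held none in 498237 UMIs. The 172 CPM of Adamts5 in nucleus-like cells rested on 1 barcode of control round 1, marked as a doublet by Scrublet, which held 28 of the 30 UMIs.

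Adamts4 was highest, among the named classes, in vessel cells. It reached 185 CPM in endothelial-like cells (47 UMIs, 32.8% of cells with a UMI) and 182 CPM in mural-like cells (31 UMIs, 28.2% of cells), against 10.95 CPM in outer and 1.34 CPM in inner annulus-like cells. These 103 vessel cells, 2.68% of cells with 2.07% of UMIs, held 46.7% of all Adamts4 UMIs. By library, the vessel cells showed 283 CPM in control round 1, 240 CPM in injured round 1, 34.2 CPM in control round 2 and 49.7 CPM in injured round 2, so the rounds differed and the groups overlapped. In mural-like cells of injured round 1, 1 cell held 12 of the 23 UMIs. A further 35 Adamts4 UMIs (253 CPM) lay in the Ccl11-led cluster, above the level of either vessel cluster.

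Adamts9 was likewise highest in vessel cells, with 211 CPM in mural-like cells (36 UMIs, 41.0% of cells) and 110 CPM in endothelial-like cells (28 UMIs, 28.1% of cells). Vessel cells held 57.1% of its UMIs, and it stood at 1.96 CPM in inner and 1.88 CPM in outer annulus-like cells. Vessel cells of the 4 libraries gave 94.2 CPM in control round 1, 183 CPM in injured round 1, 0 CPM in control round 2 (7 cells) and 129 CPM in injured round 2. Both injured values were above both control values here, but the controls rest on 9 and 7 vessel cells and no test was made. The share of all genes with that pattern in vessel cells was not computed.

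Adamts1, an inflammation-responsive protease that also limits blood vessel growth, was seen in 21.7% of all cells, against 577 of 3846 cells for Adamts5, 2.99% of cells for Adamts4 and 2.08% for Adamts9. It reached 634 CPM in mural-like and 426 CPM in endothelial-like cells (66.7% and 45.3% of cells with a UMI), 134 CPM in inner and 119 CPM in outer annulus-like cells, and 2.01 CPM (1 UMI) in macrophage-like cells. The Ccl11-led cells gave 492 CPM (68 UMIs), between the mural-like and endothelial-like levels. Vessel cells held 8.56% of its UMIs. Inside the inner class, with libraries pooled, Mmp12-led cells gave 260 CPM, against 75.4, 80.9 and 115 CPM in the Saa1-, Cnmd- and Il11-led cells. That cluster held 28.7% of all Adamts1 UMIs with 13.6% of all UMIs, and it was almost all injured round 1 (180 of 202 cells, 256 CPM). The 13 cells from injured round 2 gave 237 CPM, with 15 of their 30 UMIs in 1 cell, and the 8 from control round 1 gave 635 CPM, with 13 of 26 UMIs in 1 cell. In injured round 1 Il11-led cells were far lower (47.3 CPM), but in injured round 2 they gave 210 CPM, close to the Mmp12-led cells. The Il11-led cells of control round 2 gave 270 CPM (27 UMIs in 9 cells).

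With libraries pooled, Htra1 was highest in the Cnmd-led inner annulus-like cells at 918 CPM and in the Myoc-led cells at 876 CPM, followed by 789 CPM in the shallow Ccl11-led cells (109 UMIs) and 701 CPM in the Saa1-led inner cells. The order of the first pair depended on the group, since Myoc-led cells were higher in both control libraries (1363 and 1408 against 777 and 963 CPM) and Cnmd-led cells in both injured ones (1032 and 941 against 657 and 827 CPM). Htra1 stood at 534 and 501 CPM in the Il11- and Mmp12-led inner cells, 602 CPM in nucleus-like (30 of 105 UMIs in the doublet barcode named above) and 323 CPM in mural-like cells, and only 179 and 151 CPM in the Aspn- and Hist1h2ap-led outer cells. In macrophage-like cells it was at 22.1 CPM, below its level in the suspension. None of the 64 endothelial-like cells held an Htra1 UMI, which allows a level of up to 11.8 CPM.

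Htra3 followed the annulus cells in another order when libraries were pooled. It gave 506 CPM in the Il11-led, 405 CPM in the Myoc-led and 378 CPM in the Saa1-led cells. Mmp12-led and Cnmd-led cells gave 340 and 303 CPM. The order changed by library, since Myoc-led cells were above Il11-led cells in control round 2, and Saa1-led cells were in injured round 1. Outer annulus-like cells carried 261 CPM of Htra3 and 173 CPM of Htra1, and 430 of these 490 cells came from injured round 2. In the outer class of a finer clustering, which takes in Myoc-led cells, Htra1 was above Htra3 in all 4 libraries (1181 and 1235 against 292 and 489 CPM in control rounds, 544 and 336 against 321 and 315 CPM in injured ones). Nucleus-like and endothelial-like cells held no Htra3 UMI (up to 17.2 and 11.8 CPM by the same limit), and mural-like cells held 1. The unnamed Ccl11-led cells gave 970 CPM, with 106 of 134 UMIs from control round 2.

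Htra4 stood at 42.7 CPM in inner and 3.13 CPM in outer annulus-like cells (15.8% and 1.02% of cells with a UMI). In the finer outer class, with its Myoc-led cells, Htra4 reached 73.1 and 40.1 CPM in control rounds. The inner class as first clustered gave 52.4 and 69.2 CPM, so neither class was higher in both control rounds. In injured rounds Htra4 gave 19.2 and 9.62 CPM in the finer outer class, below the 36.4 and 41.0 CPM of the inner class. Inner cells held 74.8% and Myoc-led cells 21.7% of its UMIs, although they hold 54.7% and 20.9% of all UMIs. Within the inner class it ranged from 29.2 CPM in Saa1-led to 66.7 CPM in Cnmd-led cells. Only 2 UMIs were seen in 269 Aspn-led cells, and none in endothelial-like, nucleus-like and Hist1h2ap-led cells.

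**Figure D1:**
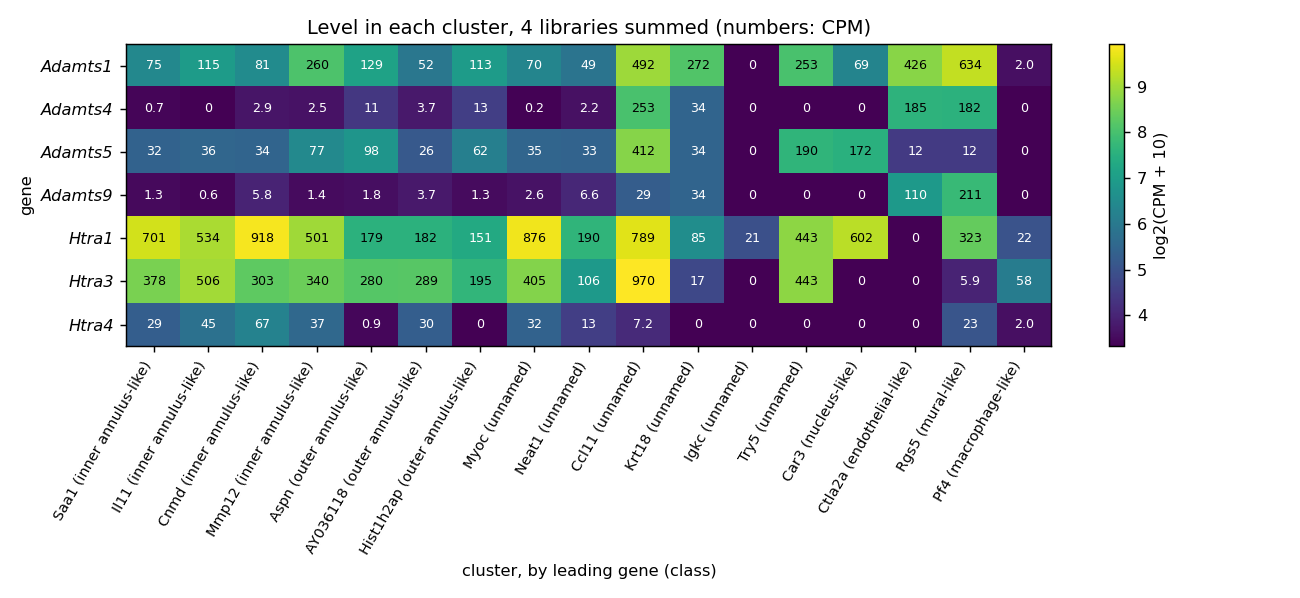
Level of each of the 7 proteases (CPM) in the cell clusters, summed over all 4 libraries, with the CPM printed in each cell and colour on the log2(CPM + 10) scale. Adamts9 is highest in the vessel clusters (110 and 211 CPM), Adamts4 in the Ccl11-led cluster (253 CPM) and then the vessel clusters (185 and 182 CPM), while Htra1 and Htra3 fill the annulus clusters and are at 0 in endothelial-like cells.

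**Figure D2:**
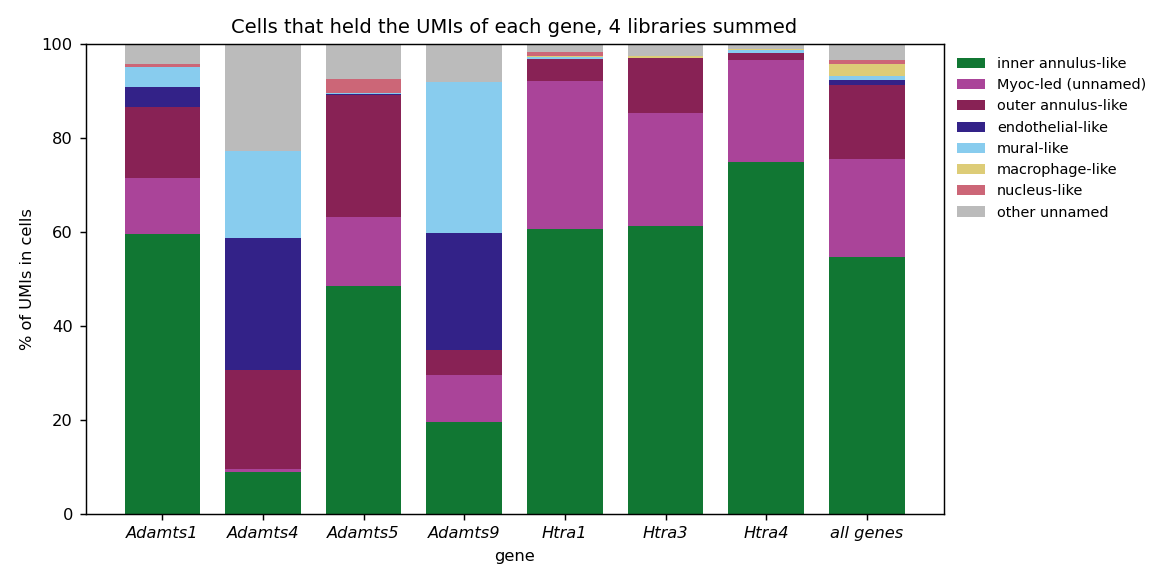
Share (percent) of each gene's UMIs held by each kind of cell, stacked to the whole, beside the same split for all genes. Endothelial-like and mural-like cells together hold 46.7% of Adamts4 and 57.1% of Adamts9 UMIs but 2.07% of UMIs of all genes.

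The balance of Htra1 to Htra3 was read in clusters with 50 or more UMIs of the pair in a library. There were 2.44 and 3.01 Htra1 UMIs per Htra3 UMI in Cnmd-led cells of control rounds 1 and 2 and 4.75 and 3.35 in the injured ones. Il11-led cells gave 0.93, 0.86, 0.84 and 1.46 in the same order, below every Cnmd-led value. Of the 78 Il11-led cells of control round 1, 4 remained without the shared barcodes, with 2 UMIs of each gene, so that value rests on shared barcodes. The Il11-led value of control round 2 came from 9 cells, and 1 of them held 17 of the 42 Htra3 UMIs. Aspn-led cells gave 0.62 and 0.63 in injured rounds 1 and 2, so Htra3 outnumbered Htra1 in both. Other clusters spanned these ranges, with Saa1-led cells at 0.89 and 1.90 in the injured rounds and at 2.57 in control round 2, and Mmp12-led cells at 1.44 and 1.75 in injured rounds 1 and 2. Myoc-led cells gave 3.75 and 2.69 in control and 1.98 and 2.01 in injured rounds, so the groups did not overlap in that cluster. The Cnmd-led values did not overlap either, and there the injured ratios were the higher ones.

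For each member, the genes whose levels over 15 clusters were most like its own were sought among 2954 genes averaging 50 CPM or more over the clusters. Only clusters of at least 50 cells were used. The 39 mural-like cells, where Adamts1 and Adamts9 were highest, were thus left out, and endothelial-like cells were the only vessel cluster. The measure was Pearson's r of log2(CPM + 10), given as a description, since clusters share libraries and depth. Closest to Adamts4 were the vessel genes Plvap (0.95), Col4a1 (0.95) and Eng (0.94), and closest to Adamts9 were Plvap (0.95), Emcn (0.92) and Kitl (0.91). Adamts4 and Adamts9 had r = 0.88 with each other. Adamts1 was nearest to Nfib (0.94), Plpp3 (0.92) and S100a16 (0.89), and Adamts5 to Ddr2 (0.84), Frmd6 (0.83) and Gfpt2 (0.81). Htra1 was nearest to Fxyd1 (0.94), Cryab (0.88) and Ddr2 (0.88). Htra3 lay nearest to Dcn (0.95), which encodes the small proteoglycan decorin, then Clmp (0.94) and Sod3 (0.93). Htra4 lay nearest to the cartilage gene Scrg1 (0.93), the Wnt inhibitor Wif1 (0.92) and Bmp2 (0.92). The pairs Htra1 with Htra3 (0.69), Htra3 with Htra4 (0.67) and Htra1 with Htra4 (0.66) were less alike than any of these.

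Whether injury moved the 7 genes was asked first over all cells, with UMIs summed per library. In edgeR's quasi-likelihood test 10 of 11987 genes (0.0834%) passed an adjusted p of 0.05, and none of the 7 members did. No member had an unadjusted p under 0.05 either, and DESeq2, which called 180 genes (1.5%), called none of them. With the round as a block 803 genes (6.7%) were called, and again none of the 7 (lowest adjusted p = 0.10, for Htra4). Adamts4, Htra1 and Htra4 (3 of 7) were lower in both injured than in both control libraries, a pattern found in 20.6% of all genes tested.

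Htra1 stood at 783 and 888 CPM in control rounds 1 and 2 and at 473 and 563 CPM in injured rounds 1 and 2, which is 836 ± 74.0 against 518 ± 63.4 CPM (SD, n = 2 each). The groups did not overlap and Htra1 was lower in the injured library within each round. Its log2 change was -0.62 ± 0.35 (SE), with an adjusted p of 0.76. Htra4 gave 48.0 and 50.02 CPM in control and 31.1 and 25.8 CPM in injured rounds, also without overlap (49.0 ± 1.45 against 28.4 ± 3.76 CPM, SD, n = 2 each). Its log2 change was -0.73 ± 0.34, with an adjusted p of 0.67. Htra3 showed no such split, with 290 and 363 CPM in control and 367 and 345 CPM in injured rounds (0.19 ± 0.34, adjusted p = 0.95).

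Adamts1 gave 131 and 105 CPM in control and 159 and 103 CPM in injured rounds (0.20 ± 0.37, adjusted p = 0.95), so the groups overlapped. Adamts5 gave 72.4 and 49.6 CPM in control and 54.9 and 45.1 CPM in injured rounds (-0.22 ± 0.37, adjusted p = 0.94). The highest Adamts5 value, control round 1, held 77 UMIs, and 28 of them came from the doublet barcode named above. Without Scrublet doublets the Adamts5 change was 0.13, and without control round 1 it was 0.11.

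Adamts4 gave 15.05 and 13.4 CPM in control and 12.0 and 3.88 CPM in injured rounds, with no overlap (log2 change -0.80 ± 0.60, adjusted p = 0.85). Vessel cells made up 2.38% and 0.82% of cells in control and 6.68% and 1.91% in injured rounds. In the cells that were not vessel cells Adamts4 stood at 6.78 and 13.1 CPM in control against 2.78 and 3.44 CPM in injured rounds. Without the shared barcodes control round 1 stood at 10.6 CPM, so that the groups overlapped. Of the 29 UMIs of control round 2, 26 lay in the Ccl11-led cluster of very shallow cells, and with cells of at least 500 genes the Adamts4 change was 0.27. Adamts9 rested on 6, 19, 55 and 32 UMIs in control rounds 1 and 2 and injured rounds 1 and 2, or 5.64, 8.80, 8.18 and 3.03 CPM (-0.37 ± 0.65, adjusted p = 0.95). It changed sign without control round 2 (0.02) or injured round 2 (0.18), and at this depth no difference in Adamts9 was detectable.

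**Figure D3:**
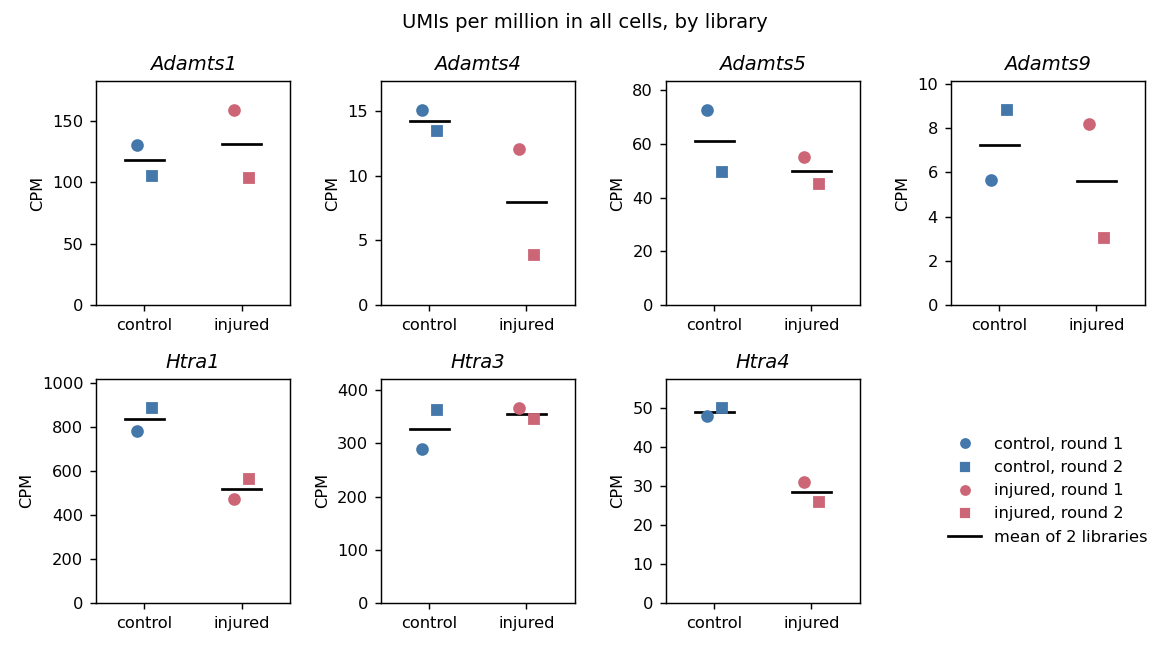
CPM of each protease in each of the 4 libraries over all cells, 1 point per library with round shown by its shape, and a line at the mean of each group. Htra1 lies at 783 and 888 CPM in control and 473 and 563 CPM in injured libraries and Htra4 at 48.0 and 50.02 against 31.1 and 25.8 CPM, without a call for either, while Adamts1 and Htra3 overlap between the groups.

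Shares of cells with an Htra1 UMI changed order once depth was made equal. Cells of injured libraries held more UMIs, and the unthinned share was 46.6% and 44.3% in control and 62.5% and 65.2% in injured rounds. After thinning each cell to 1000 UMIs, the control shares became 46.9% and 41.4% and the injured ones 32.0% and 38.8%. The thinned difference was -8.77 percentage points (exact permutation p = 0.33, two-sided), and 0.33 is the smallest p that 2 libraries against 2 allow. Thinning left out 182 and 460 shallower cells in control and 135 and 245 in injured rounds. At that depth Htra1 was seen in 0 of 31 and in 2.63% of 76 macrophage-like cells of injured rounds 1 and 2. Htra3 went from 34.9% and 33.1% against 61.2% and 59.8% unthinned to 26.5% and 19.4% against 27.4% and 26.4% thinned, and Htra4 to 4.08% and 3.54% against 2.49% and 1.83%. Thinned to 500 UMIs, the Htra1 shares were 21.4% and 25.9% in control and 15.9% and 21.6% in injured rounds, which overlap (difference -4.93 points, exact permutation p = 0.67). The Htra4 shares were then 1.32% and 1.13% in control and 1.28% and 1.19% in injured rounds, with no separation.

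Within the inner annulus-like class no gene of 10281 passed edgeR's test (0.0%; 832 had an unadjusted p under 0.05 and DESeq2 called 100 of the 7690 to which it gave an adjusted p, or 1.3%), and 0 of the 5 members with enough UMIs did. With the round as a block 856 genes (8.33%) were called and again no member (lowest adjusted p = 0.31, for Htra4). The make-up of the class differed by library, since Cnmd-led cells held 83.1% and 79.4% of its UMIs in control rounds, Mmp12-led cells 52.6% in injured round 1 and Saa1-led cells 62.1% in injured round 2. Htra4 stood at 52.4 and 69.2 CPM in control and 36.4 and 41.0 CPM in injured rounds (log2 change -0.55 ± 0.38, adjusted p = 0.79). Htra1 stood at 718 and 913 CPM in control and 503 and 709 CPM in injured rounds (-0.31 ± 0.41, adjusted p = 0.90). Both were lower without overlap, as were 22.8% of genes tested. Htra3 was the 1 member higher without overlap, like 14.7% of genes, at 319 and 334 CPM in control and 420 and 391 CPM in injured rounds (0.42 ± 0.37, adjusted p = 0.84). Adamts1 gave 129 and 103 against 162 and 112 CPM (0.34 ± 0.38), and Adamts5 43.4 and 26.9 against 58.2 and 34.3 CPM (0.52 ± 0.45), both with overlap. Adamts4 and Adamts9 held at most 10 UMIs in any library of the class and were not tested.

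In Cnmd-led cells, a single cluster of that class, Htra1 gave 777 and 963 CPM in control and 1032 and 941 CPM in injured rounds (0.20 ± 0.48), and Htra4 57.7 and 72.8 against 81.0 and 52.1 CPM (0.03 ± 0.47), so both overlapped. Adamts1 was lower without overlap at 95.6 and 89.2 against 68.2 and 34.7 CPM (-0.85 ± 0.49), and 1 cell held 36 of its 87 UMIs in control round 2. Htra3 was lower without overlap too, at 319 and 320 against 217 and 281 CPM (-0.32 ± 0.47), beside 13.4% of genes with that pattern, and no member was higher without overlap, beside 9.52%. Adamts5 gave 45.1 and 23.6 against 76.7 and 13.9 CPM (0.39 ± 0.70), and its change was -1.16 without injured round 1. None of 5418 genes passed edgeR's test in this cluster (0.0%; 94 had an unadjusted p under 0.05 and DESeq2 called 0), and the 5 members tested had adjusted p of 1.00. With the round as a block 47 genes (0.867%) were called and no member (lowest adjusted p = 0.75, for Adamts1).

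In Myoc-led cells 27 of 6507 genes passed (0.415%) and 0 of 5 members did, as with the round as a block, where 597 genes (9.17%) were called. DESeq2 gave an adjusted p to 2596 genes, calling 75 (2.89%), and to 3 of the members, calling none. Htra1 was closest, at 1363 and 1408 CPM in control and 657 and 827 CPM in injured rounds, or 1386 ± 31.4 against 742 ± 121 CPM (SD, n = 2 each). Its log2 change was -0.80 ± 0.36 with an adjusted p of 0.41 (0.085 with the round as a block). Htra4 gave 81.5 and 40.2 CPM in control and 24.7 and 30.5 CPM in injured rounds (-0.91 ± 0.47, adjusted p = 0.49). Both were lower without overlap, as were 24.7% of genes tested, and no member was higher without overlap, as were 18.2%. Htra3 at 364 and 524 against 332 and 413 CPM (-0.16 ± 0.38), Adamts1 at 70.6 and 33.5 against 92.2 and 68.9 CPM (0.82 ± 0.45) and Adamts5 at 70.6 and 33.5 against 46.1 and 29.0 CPM (-0.31 ± 0.48) overlapped. In injured round 1, 28 of the 82 Adamts1 UMIs came from 1 cell.

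**Figure D4:**
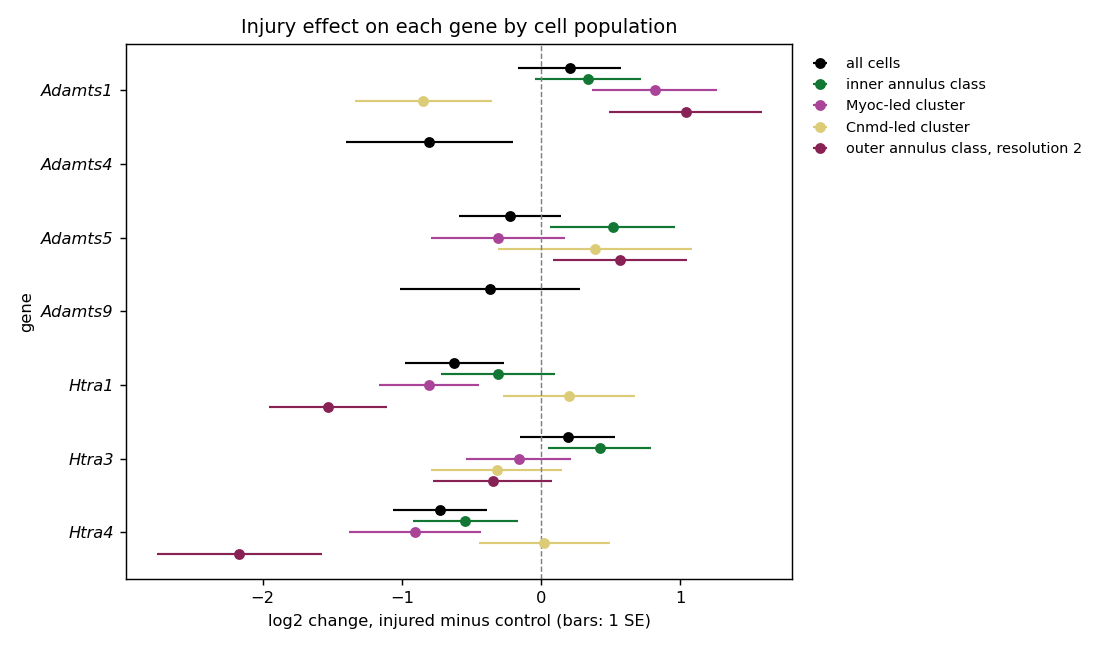
Log2 change of the tested proteases, injured against control, from edgeR without the block in all cells, the inner annulus-like class, the Myoc-led and Cnmd-led clusters and the outer class at resolution 2, with bars of 1 SE. Htra1 and Htra4 lie at 0.20 and 0.03 in Cnmd-led cells and below 0 in the other populations (Htra1 from -1.53 to -0.31), and no point passes an adjusted p of 0.05.

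The difference between populations was itself tested with an interaction term. The Htra1 change in Myoc-led cells minus that in Cnmd-led cells was -1.09 ± 0.35 (edgeR, adjusted p = 0.41), and that of Adamts1 was 1.66 ± 0.52 in the other direction (edgeR, adjusted p = 0.40). Neither passed, while 10 of 6783 genes (0.147%) did. Against the whole inner class, the Myoc-led change differed by -0.42 ± 0.26 for Htra1, -0.53 ± 0.29 for Htra3, -0.22 ± 0.43 for Htra4, -0.74 ± 0.41 for Adamts5 and 0.58 ± 0.37 for Adamts1, with adjusted p from 0.88 to 0.99 over the 5 members (12 of 8878 genes passed, 0.135%).

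Without the shared round 1 barcodes no member was called in these populations or between them. The calls among all genes were then 0.0253% over all cells, 0.137% in the inner class, 0.433% in Myoc-led and 0.0% in Cnmd-led cells, and 0.202% and 0.148% for the differences of Myoc-led cells from the inner class and from Cnmd-led cells. Htra1 in control round 1 then stood at 830 CPM over all cells (log2 change -0.68, adjusted p = 0.76) and Htra4 at 52.9 CPM (-0.81, adjusted p = 0.67), so both stayed without overlap.

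Outer annulus-like cells were too few for a test as first clustered, with 13 cells in each control library, 34 in injured round 1 and 430 in injured round 2. Finer clustering at resolution 2 gave an outer class of 40 and 60 control and 49 and 502 injured cells, in a comparison chosen after seeing the data. Htra1 in it stood at 1181 and 1235 CPM in control and at 544 and 336 CPM in injured rounds. Its log2 change was -1.53 ± 0.42 with an adjusted p of 0.12, where 73 of 5095 genes passed (1.43%). With the round as a block it fell by 1.56 (adjusted p = 0.0011), among 552 genes called (10.8%). Htra4 gave 73.1 and 40.1 CPM (13 and 16 UMIs) in control and 19.2 and 9.62 CPM (7 and 32 UMIs) in injured rounds, with a log2 change of -2.17 ± 0.59 (adjusted p = 0.11), and fell by 2.03 with the block (adjusted p = 0.0019). Without the block, leaving out injured round 1 gave -1.83 and -2.45 (adjusted p = 0.011 and 0.0049). That fit has 1 injured library, assumed to vary like the controls. Leaving out any other library gave no call, with adjusted p from 0.32 to 0.48 for Htra1 and from 0.13 to 0.67 for Htra4. Adamts1 at 84.3 and 27.6 against 115 and 105 CPM (1.04 ± 0.55, adjusted p = 0.48), Adamts5 at 67.5 and 37.6 against 74.2 and 78.2 CPM (0.57 ± 0.48, adjusted p = 0.68) and Htra3 at 292 and 489 against 321 and 315 CPM (-0.35 ± 0.43, adjusted p = 0.81) were called under neither.

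This fall moved with the make-up of the class. A finer Myoc-led cluster held 82.1% and 92.2% of the class's UMIs in control rounds but 30.3% and 13.7% in injured rounds, where Aspn-led cells held 40.8% and 59.5%. Within the finer Myoc-led cells Htra1 gave 1355 and 1311 CPM in control (27 and 47 cells) and 1250 and 1427 CPM in injured rounds (15 and 73 cells), so the groups overlapped. Htra4 there gave 89.0 and 43.4 CPM in control and 36.2 and 54.9 CPM in injured rounds, with overlap too. Aspn-led cells had low Htra1 in every library, 270 and 367 CPM in 5 and 3 control cells and 141 and 177 CPM in 12 and 247 injured cells, and at most 1.01 CPM of Htra4. The Htra1 difference of the outer class was thus not seen within its Myoc-led cells, and within its Aspn-led cells, where the groups did not overlap, both control values rest on 5 or fewer cells. The AY036118-led cells gave 832 and 217 CPM of Htra1 in 8 and 10 control cells (5 and 2 UMIs) and 159 and 173 CPM in 20 and 112 injured cells, also lower without overlap.

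The Myoc-led cluster of the coarser clustering split in a like way. Nearly all of the finer Myoc-led cells (161 of 162) and of an unnamed M1ap-led cluster (296 of 300) came from it. A further 51 Chac1-led and 40 Ecrg4-led cells, finer clusters named inner annulus-like, came from it too, and 47 of the 59 Chac1-led cells were from injured round 1, with Htra1 at 528 CPM there. In M1ap-led cells Htra1 gave 2217 and 1927 CPM in 5 and 13 control cells and 547 and 615 CPM in 25 and 257 injured cells, without overlap. Control cells of that kind are too few for a test. Their Htra3 values ran from 71.5 CPM in control round 1 to 700 CPM in control round 2, with the injured rounds at 235 and 362 CPM between them. The share of all genes without overlap was not computed for any of the finer clusters.

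**Figure D5:**
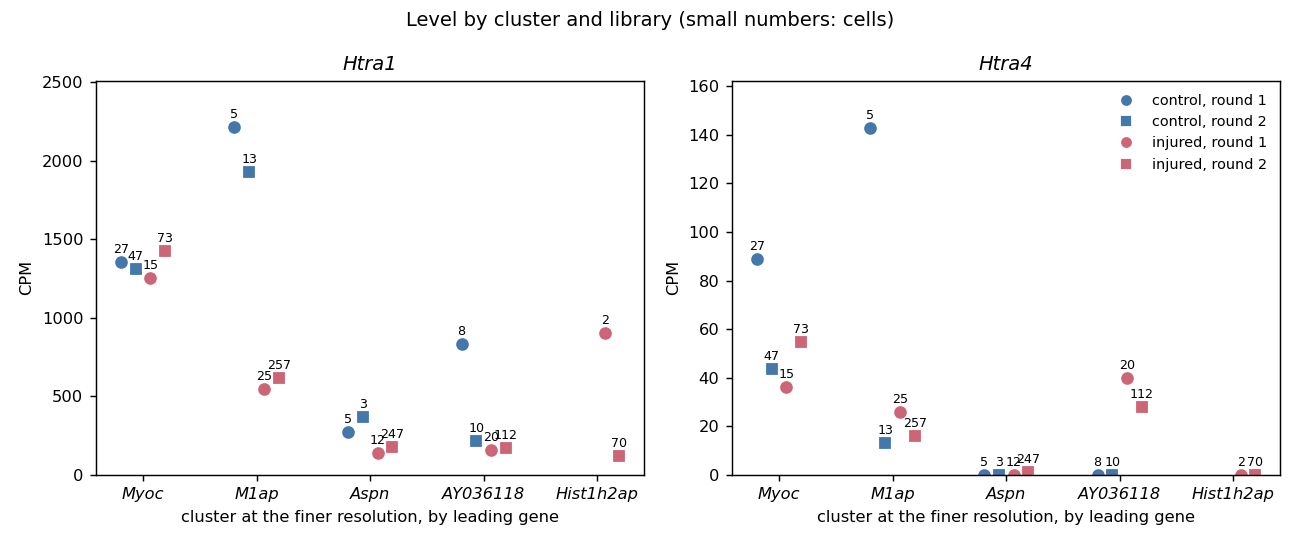
Htra1 (left) and Htra4 (right) level in CPM per library in the finer clusters of the outer class and the M1ap-led cluster, with the number of cells above each point. For Htra1, finer Myoc-led cells stay between 1250 and 1427 CPM in all 4 libraries, and Aspn-led cells lie at or below 367 CPM throughout. M1ap-led cells lie at 2217 and 1927 CPM in control (5 and 13 cells) and at 547 and 615 CPM in injured rounds.

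Between the inner and outer classes at resolution 2, the injury change of Htra1 differed by -1.29 ± 0.44 (outer minus inner, adjusted p = 0.47) and that of Htra4 by -1.74 ± 0.63 (adjusted p = 0.51), with 12 of 9116 genes called (0.132%). These values rested on single libraries. Without injured round 1, where the lone injured library is assumed to vary like the controls, they were -1.91 (adjusted p = 0.0010) and -2.16 (adjusted p = 0.030). Without injured round 2, which leaves 1 injured library too, they were -0.61 and -0.75 (adjusted p = 1.00 for both), and leaving out either control library gave no call.

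Other genes of the pathway were read in fixed lists over all cells, where no gene of any list passed edgeR's test without the block. Of 19 matrix substrates 13 were tested, with a median log2 change of 0.33 beside -0.01 over all genes, and with the block, under which 6.7% of all genes were called, Hapln1 and Fn1 were called higher and Matn3 lower. Acan, the aggrecan gene and itself 1 of the inner annulus markers, gave 1138 and 1012 CPM in control and 2132 and 1589 CPM in injured rounds (0.85 ± 0.36, adjusted p = 0.64). In Myoc-led cells Acan gave 646 and 143 CPM in control and 732 and 903 CPM in injured rounds (1.16, adjusted p = 0.46), and it was called higher there with the block (adjusted p = 0.00065), with Hapln1 and Fn1 higher and Matn2 lower, among 10 tested substrates and beside 9.17% of all genes. In the inner class the block called 7 of 13 substrates, Hapln1, Dcn, Lum and Fn1 higher and Comp, Matn2 and Matn3 lower, beside 8.33% of all genes. Hapln1, Comp and Matn3 are also markers of this class, and Dcn and Lum of the outer class, so these genes took part in the naming. Lum rested on 2 and 0 UMIs in the control rounds of the inner class. The matrilin gene Matn3 gave 55.4 and 18.7 CPM in control and 1.01 and 1.83 CPM in injured rounds there, and Dcn, the decorin gene, 3691 and 1712 CPM against 11370 and 8065 CPM, and neither passed without the block. In Cnmd-led cells it called 2 of 9, Hapln1 and Dcn, both higher, beside 0.867% of all genes. Vcan, the versican gene, gave 2388 and 3172 CPM in control and 2206 and 1379 CPM in injured rounds (-0.58 ± 0.39, adjusted p = 0.83).

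Of 12 inhibitors, clearance receptors and processing proteases 11 were tested. With the block Timp1, Timp3 and the proprotein convertase Pcsk5 were called higher and Timp2, Timp4 and Pcsk6 lower over all cells, beside the 6.7% of all genes called. The block called the same 6 genes the same way in the inner class, beside 8.33% of all genes. In Myoc-led cells it called Timp1 and Timp3 higher and Timp2 and Pcsk6 lower, beside 9.17% of all genes. In Cnmd-led cells it called Timp1 higher, beside 0.867% of all genes. Timp3, the tissue inhibitor known to block aggrecanases, gave 858 and 914 CPM in control and 2640 and 1409 CPM in injured rounds (1.24 ± 0.41, adjusted p = 0.49, and 0.046 with the block). The inhibitor Timp1 rose in Myoc-led cells, from 196 and 87.0 CPM to 1316 and 1414 CPM (3.40 ± 0.47, adjusted p = 0.012), the 1 call among 9 tested genes of its list there, beside 0.415% of all genes. Lrp1, the endocytic receptor that clears aggrecanases from cartilage, gave 325 and 394 CPM in control and 245 and 348 CPM in injured rounds (-0.20 ± 0.37, adjusted p = 0.95). Of 16 inducers and regulators 14 were tested, and with the block Il6 and the interleukin receptor Il1r1 were called lower, again beside 6.7% of all genes. In Myoc-led cells the block called 1 of 11 tested higher, Tnfrsf1a, a receptor of tumour necrosis factor, beside 9.17% of all genes. In the inner class it called 1 of 13 lower, Il1r1, beside 8.33%. Both counts lie near the share over all genes.

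Of the 15 other ADAMTS proteases 6 were tested over all cells, with a median change of -0.05, and none was called with or without the block. The procollagen N-proteinase Adamts2 (1060 UMIs) was as abundant as Adamts5, followed by Adamts6 (485 UMIs). Adamts15, also counted among the aggrecanases, and Adamts8 held 28 and 3 UMIs in all 3846 cells. Htra2, the mitochondrial member of the Htra family, held 358 UMIs. Of 6 ADAMTS-like proteins, which lack the protease domain, 3 were tested and none was called either.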

How the data were processed

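The authors deposited raw UMI counts per gene and barcode for 4 libraries of the 10x 3' assay, aligned to mm10 with Cell Ranger per the submitters' processing notes (version 6.0.0 for control round 1 and 4 for the others, per the file headers). Control round 1 lists only 444 barcodes, with at least 502 UMIs, while the other files list all barcodes. Barcodes with at least 250 genes were kept as cells, and 16401 genes seen in at least 5 cells. The cell libraries hold 1064193, 2161114, 6727076 and 10558620 UMIs in control rounds 1 and 2 and injured rounds 1 and 2, so control levels are the less precise. Intervals and floors (3 counts) cover counting error only. The members and lists were chosen with earlier results of these data known.

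Cells were clustered with scanpy 1.11.5 (2000 variable genes without the members, 30 components, 20 neighbours, Leiden resolution 1) and named from at least 3 markers. Scrublet marked 20 cells as doublets, which stayed in except in one alternative. Counts were summed per library and population (at least 20 cells in each library) and tested two-sided with edgeR 4.0.16 (filterByExpr, TMM, quasi-likelihood F test, Benjamini-Hochberg over all genes tested, called at 0.05). DESeq2 1.42.0 was an alternative. The tests in Myoc-led and Cnmd-led cells and in the outer class at resolution 2 were chosen after seeing the data, as were the fits with the block and without shared barcodes together. The scripts were tested on simulated data. The named genes are the 7 members, the pathway genes called in either fit (with values for at most 5 a list, by size of change), Acan, Vcan, Timp3 and Lrp1, and the 3 genes most like each member. Adamts2, Adamts6, Adamts8, Adamts15 and Htra2 were named after their totals were seen. Injured and control discs came from the same animals, per the labels, so the round pairs the libraries. Deviations of the 2 libraries of a round correlated across genes (r = 0.60 in all cells, 0.59 in inner, 0.40 in Myoc-led and 0.55 in Cnmd-led cells). P-values measure the spread between 2 pooled libraries a group, which may be technical.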

Additional observations from a re-analysis of the deposited data

How the results depend on the processing

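Over 448 alternative values of the members' log2 changes, 420 kept the sign and stayed uncalled, 20 changed sign and 8 were called. The 8 calls were Htra1 and Htra4 in the outer class at resolution 2 with the replicate block (-1.56 and -2.03), with the block and without shared barcodes (-1.57 and -2.05) and without injured round 1 (-1.83 and -2.45, with ranges of -1.83 to -1.29 and -2.61 to -1.59 on leaving out each library), and the same 2 genes between the inner and outer classes without injured round 1 (ranges of -1.91 to -0.61 and -2.16 to -0.75). The block changed no other call of a member. A fit without 1 library leaves 1 library in that group, assumed to vary like the other group. The cause was not tested for any of these changes.

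Some changes took the other sign on leaving out 1 library. Over all cells the ranges were -0.0765 to 0.47 for Adamts1, -0.48 to 0.11 for Adamts5 and -1.16 to 0.18 for Adamts9. In Myoc-led cells they were -0.86 to 0.25 for Adamts5 and -0.41 to 0.14 for Htra3, and in Cnmd-led cells -1.16 to 1.18 for Adamts5 and -0.22 to 0.29 for Htra4. Htra3 in the outer class ran from -0.60 to 0.0458. Between populations the ranges were -1.01 to 0.32 for Htra4 (inner against Myoc-led), -1.20 to 0.60 for Adamts5 and -0.047 to 0.37 for Htra3 (Cnmd-led against Myoc-led), and -0.34 to 0.43 for Adamts5 (inner against outer). Other settings reversed Adamts4 over all cells (0.27 with at least 500 genes), Adamts5 over all cells (0.13 without doublets) and, with no filter, Htra3 in Myoc-led cells (0.00196) and Htra4 in Cnmd-led cells (-0.0097).

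Counts of called genes over all cells were 180 with DESeq2, 34 with no filter, 803 with the replicate block, 124 to 271 leaving out 1 library, 3 without shared barcodes (247 with the block too), 0 at 500 genes, 29 with a UMI minimum, 19 under 10% mitochondrial UMIs and 19 without doublets. In the inner class they were 100 with DESeq2, 208 with no filter, 856 with the block, 0 to 250 leaving out 1 library, 14 without shared barcodes (578 with the block too), 10 at 500 genes and 12 under 10% mitochondrial UMIs. In Myoc-led cells they were 75 with DESeq2, 183 with no filter, 597 with the block, 612 with the block and without shared barcodes, 0 to 172 leaving out 1 library and 14 at 500 genes. In Cnmd-led cells they were 13 with no filter, 47 with the block in both versions and 0 to 10 leaving out 1 library. For the outer class the block gave 552 (581 without shared barcodes) and leaving out 1 library 23 to 514. Between populations, leaving out 1 library gave 18 to 102 (inner against Myoc-led), 27 to 48 (Cnmd-led against Myoc-led, with 3 at resolution 0.5) and 8 to 285 (inner against outer, with 21 without shared barcodes).

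Differences in the thinned share of cells with a UMI changed sign without thinning for Adamts5 (9.18 percentage points), Adamts9 (0.72), Htra1 (18.4) and Htra4 (4.67), and at 500 UMIs for Adamts4 (-0.72), Adamts5 (0.37) and Htra4 (0.00998). Leaving out 1 library gave -3.15 to 4.04 for Adamts1, -0.58 to 0.82 for Adamts4, -2.37 to 0.98 for Adamts5, -1.11 to 0.18 for Adamts9, -12.1 to -5.41 for Htra1, 0.37 to 7.46 for Htra3 and -1.98 to -1.32 for Htra4. Adamts4 and Adamts9 did not pass the low-count filter in any single cell population with all 4 libraries, and the vessel cells that held most of the Adamts9 UMIs numbered 9 and 7 in control rounds 1 and 2.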
